A study of Mus musculus with 3 samples.

Results

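The regions described here are ESRRA ChIP-seq peaks of mouse duodenal villus cells that lay outside annotated genes and far from any annotated start site. A peak belonged to them when its midpoint fell in no gene of the GENCODE M1 annotation and more than 20 kb from the nearest transcript start site, in the mouse genome build mm9. Distance to the ends of genes was not measured, so a peak may lie close to the end of a gene. Of the 1639 peaks in the list, 280 met both conditions, which is 17.1% (95% Wilson interval 15.3 to 19.0). The villus cells came from the duodenum of wild-type adult C57BL/6 mice on regular chow, with no transgene or deletion. Villi were released from the tissue with EDTA, kept on a filter that let the smaller crypts through, and cross-linked with disuccinimidyl glutarate and then formaldehyde. The 2 ESRRA ChIP libraries were merged into 1 peak list, with 1 input library beside them, and the list gave positions only. No peak height, read depth or peak list per library was analysed here, so no value below carries an error between animals. A filter separates villi from crypts only in part, and a list of positions holds no expression values with which the cell type could be checked.

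ESRRA, estrogen-related receptor alpha, is an orphan nuclear receptor that works with the coactivator PGC-1α to switch on genes of mitochondrial energy metabolism. It binds DNA at the sequence TCAAGGTCA, which is the nuclear receptor half-site AGGTCA with an extension on its 5′ side. Sites far from promoters are common for nuclear receptors, and many act as enhancers that contact a promoter by looping of the chromatin. Sequence present in many copies is a different matter, because a short read from 1 copy can align equally well to others, and a pile of reads there need not mark the place that was bound.

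For this reason the 280 peaks were first divided by copy number. For every run of 24 bases in a peak, here called a word, its copies in the genome were counted on either strand. Where the median over the words of a peak exceeded 10 copies, the peak is called multi-copy, and otherwise single-copy. By this measure 118 of the far intergenic peaks were single-copy and 162 were multi-copy. The single-copy peaks are followed in detail below, and the multi-copy peaks are described for their repeats.

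The sequences that carried the ESRR site are shown first. These 7 single-copy peaks are among those with a TCAAGGTCA close to the midpoint, another 3 such peaks are shown later with their arrays of the site, and the list is not complete. Each is named by its nearest protein-coding gene and is written 5′ to 3′ on the strand that reads TCAAGGTCA, which is in capitals.
Ep300 (chr15:81384198-81384258, forward strand): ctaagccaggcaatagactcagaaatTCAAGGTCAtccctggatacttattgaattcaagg
Slc25a25 (chr2:32327045-32327105, forward strand): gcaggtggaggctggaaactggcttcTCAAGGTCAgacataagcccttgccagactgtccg
Ywhaq (chr12:21468647-21468707, reverse strand): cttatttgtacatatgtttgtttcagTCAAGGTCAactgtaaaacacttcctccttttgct
Jun (chr4:94950739-94950799, reverse strand): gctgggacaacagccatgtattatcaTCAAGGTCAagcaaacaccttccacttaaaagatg
Klf7 (chr1:64322059-64322119, forward strand): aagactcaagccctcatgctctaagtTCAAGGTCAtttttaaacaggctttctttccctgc
Jarid2 (chr13:44504259-44504319, forward strand): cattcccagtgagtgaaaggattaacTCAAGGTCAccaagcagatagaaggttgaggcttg
Lpp (chr16:24366413-24366473, reverse strand): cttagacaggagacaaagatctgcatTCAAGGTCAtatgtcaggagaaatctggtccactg
The site lay between 9 and 35 bp from the midpoint of these 7 peaks, and each of them held it once. Slc25a25, a mitochondrial carrier gene, was 20.1 kb from its peak, Ywhaq was 45.2 kb away, and Jun, an AP-1 subunit, was 232 kb away.

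**Figure D1:**
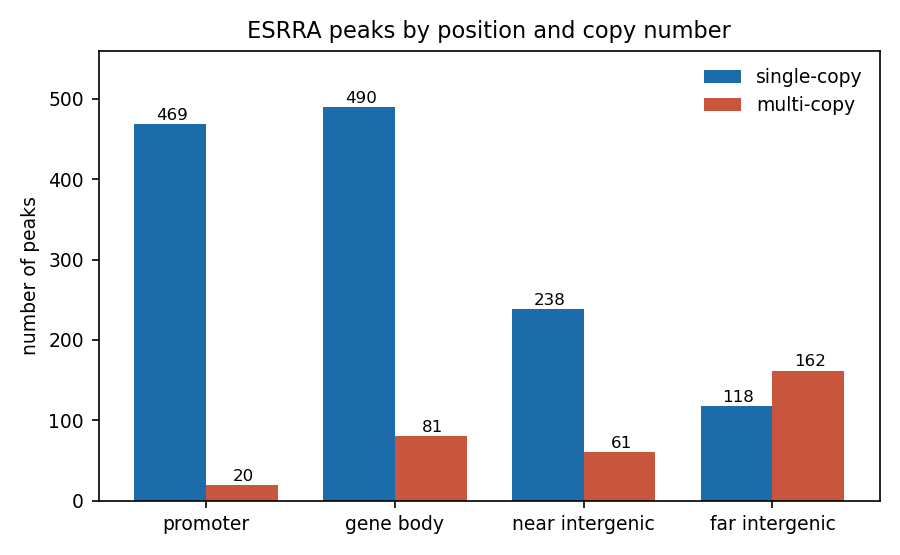
Number of ESRRA peaks (vertical axis) by the position of their midpoint (horizontal axis), with single-copy peaks in blue and multi-copy peaks in red. Multi-copy peaks outnumbered single-copy ones, 162 against 118, in the far intergenic class, whereas 469 of the 489 promoter peaks were single-copy.

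Multi-copy sequence was far more frequent here than elsewhere in the list. It made up 57.9% of the far intergenic peaks (162 of 280, 95% interval 52.0 to 63.5), while 19.8% of all 1639 peaks were multi-copy. Among the other 1359 peaks the share was 11.9% (odds ratio 10.1, Fisher's exact test p = 2.4e-57; this and all later tests by that name are two-sided). Intergenic peaks within 20 kb of a start site, called near intergenic below, had 20.4% (61 of 299, odds ratio 5.36, Fisher's exact test p = 8.9e-21). The surrounding DNA was not as rich in copies as the peaks themselves: of 557 windows of the same width placed 20 kb to either side of the far intergenic peaks, 13.6% were multi-copy (odds ratio 8.69, Fisher's exact test p = 1.6e-39), and at 50 kb the share was 11.8%.

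Read the other way, 50.0% of the 324 multi-copy peaks (95% interval 44.6 to 55.4) but 8.97% of the 1315 single-copy peaks (95% interval 7.55 to 10.6) were far intergenic. Bases that met the same rule made up 40.4% of the sequenced chromosomes, 1034 of 2559 Mb. No test of peak placement against the genome was run.

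**Figure D2:**
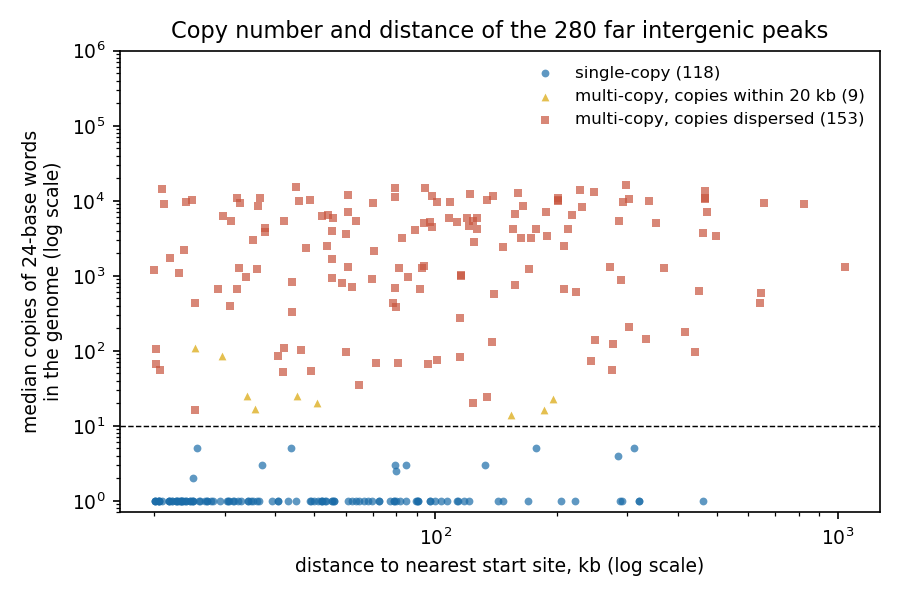
Median number of genome copies of the 24-base words of each far intergenic peak (vertical axis, log scale) against the distance of its midpoint from the nearest start site in kb (horizontal axis, log scale); 1 point is 1 peak, and the dashed line marks 10 copies. Most single-copy peaks sit at 1 copy, and the dispersed multi-copy peaks spread up to 16216 copies.

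The division by copy number left a gap between medians of 5 and 14 copies. In 107 of the 118 single-copy peaks the median was exactly 1 copy, in the other 11 it was 2 to 5, and in 43 every word occurred once in the genome. The share of words found once ran from 0 to 100% in single-copy peaks (lower quartile 86.5%), so some of them held repeated sequence. For the multi-copy peaks the median was 2451 copies (quartiles 430.5 and 7028, range 14 to 16216). The distance to a start site, which the rule itself uses, had a median of 44.4 kb in single-copy peaks (range 20.1 to 463) and of 95.2 kb in multi-copy peaks (range 20.0 to 1044), and is given without a test.

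The threshold of 20 kb cut through a continuum. Just inside it were a multi-copy peak 20040 bp from the pseudogene Gm11255 and single-copy peaks 20059 bp from Idh1, a cytosolic isocitrate dehydrogenase gene, and 20098 bp from Slc25a25. Just outside were a single-copy peak 19987 bp from Slc15a5 and multi-copy peaks 19594 bp from 9230019H11Rik and 19520 bp from Abhd6.

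Single-copy far intergenic peaks held the ESRR sequence far more often than the DNA beside them. The extended form TCAAGGTCA was in 19 of 118 (16.1%, 95% interval 10.6 to 23.8), and in 17.7% of all 1315 single-copy peaks. Windows of the same width 2 kb to either side of these peaks, called flanks, had it in 2.64% (6 of 227, odds ratio 7.07, Fisher's exact test p = 1.1e-05). Flanks were not divided by copy number, so they can hold multi-copy sequence while these peaks were chosen to be single-copy. The shorter form AAGGTCA was in 65 of 118 (55.1%, 95% interval 46.1 to 63.8), beside 51.4% of all single-copy peaks and 15.0% of the flanks (34 of 227, odds ratio 6.96, Fisher's exact test p = 1.9e-14). The core AGGTCA alone was in 78.0% of the peaks and 36.1% of the flanks (odds ratio 6.26, Fisher's exact test p = 7.2e-14).

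**Figure D3:**
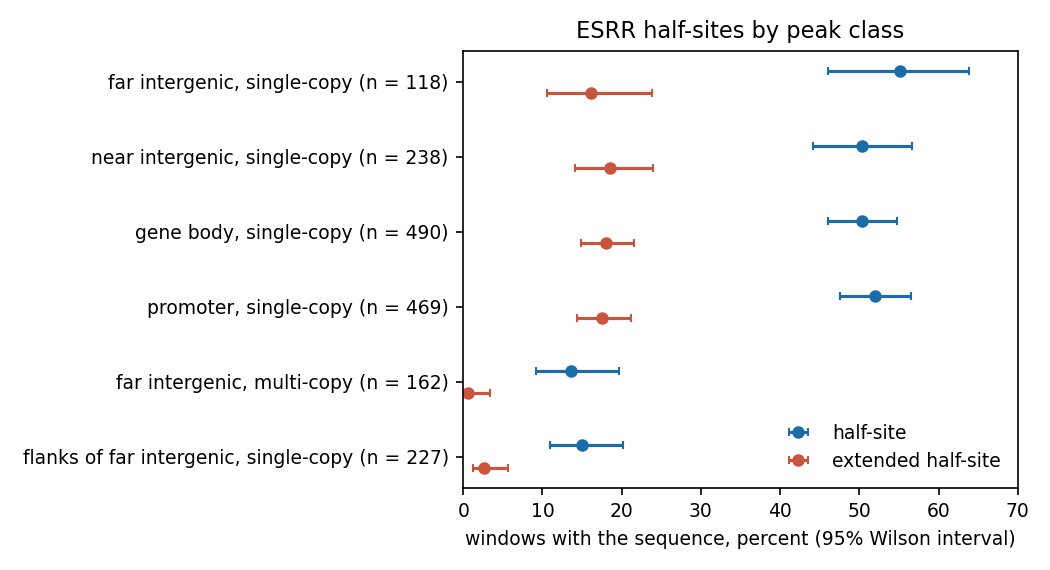
Percent of peaks or flanking windows (horizontal axis, with 95% Wilson intervals) that held the half-site, AAGGTCA, in blue, or its extended form, TCAAGGTCA, in red; each row is a class of windows with its number. The 4 single-copy classes overlap, from 50.4 to 55.1% for the half-site, and the multi-copy far intergenic peaks (13.6%) sit with the flanks (15.0%).

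Against the other 1197 single-copy peaks, no difference in either form passed the test. TCAAGGTCA was in 17.9% of those peaks (odds ratio 0.882, Fisher's exact test p = 0.71) and AAGGTCA in 51.0% (odds ratio 1.18, Fisher's exact test p = 0.44). Class by class, AAGGTCA was in 50.4% of near intergenic, 50.4% of gene body and 52.0% of promoter single-copy peaks (Fisher's exact test adjusted over these 3 comparisons, p = 0.61 for each). The core AGGTCA was more frequent in the far intergenic peaks, 78.0% against 69.1% (odds ratio 1.58, Fisher's exact test p = 0.046), but not after adjustment over a set of 42 tests of shares (adjusted p = 0.084). Misses of the threshold do not show that the classes are alike: the interval for AAGGTCA in the far intergenic peaks spans 46.1 to 63.8%.

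In the multi-copy peaks no such excess was detected. AAGGTCA was in 22 of 162 (13.6%, 95% interval 9.14 to 19.7), and in 13.3% of their own flanks (odds ratio 1.02, Fisher's exact test p = 1). A single multi-copy peak, 20.2 kb from Abcb1a, which encodes a drug efflux transporter of the enterocyte brush border, held TCAAGGTCA (0.617%, 95% interval 0.109 to 3.41), beside 0.929% of the flanks. The difference between single-copy and multi-copy far intergenic peaks passed the test for AAGGTCA (odds ratio 7.80, Fisher's exact test p = 1.3e-13) and for TCAAGGTCA (odds ratio 30.9, p = 3.8e-07).

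Half-sites were found at every range of distance. They were in 17 of 40 single-copy peaks between 20 and 30 kb from a start site (42.5%, 95% interval 28.5 to 57.8), in 14 of 23 between 30 and 50 kb (60.9%), in 22 of 35 between 50 and 100 kb (62.9%) and in 12 of 20 beyond 100 kb (95% interval 38.7 to 78.1%). These intervals overlap. The 5 single-copy peaks farthest from a start site were 463 kb from Cdc73, 321 kb from Zfp703, 321 kb from Atp2b1, 311 kb from Agtpbp1 and 291 kb from a ribosomal RNA gene. The Atp2b1 peak held 1 AAGGTCA, the Agtpbp1 peak 14 and the last of them 3, and those near Cdc73 and Zfp703 held none.

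Sites gathered at the middle of the peaks. Within 50 bp of the midpoint AAGGTCA was present in 34 of 118 single-copy far intergenic peaks (28.8%, 95% interval 21.4 to 37.6), beside 22.6% of all single-copy peaks and 3.08% of flanks (odds ratio 12.7, Fisher's exact test p = 1.0e-11). That test set the middle of peaks against the middle of flanks. The middle of peaks was not tested against their edges. The other single-copy peaks had 22.0% (odds ratio 1.44, Fisher's exact test p = 0.11). In multi-copy peaks the same window held the site in 1.23%, against 4.02% in their flanks (odds ratio 0.298, Fisher's exact test p = 0.16). Among the 19 peaks with TCAAGGTCA, 12 had it within 50 bp of the midpoint. These 19 peaks held 35 copies of TCAAGGTCA, of which 3 lay in words with more than 10 genome copies, near Ngly1, Pim1 and Gbe1.

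**Figure D4:**
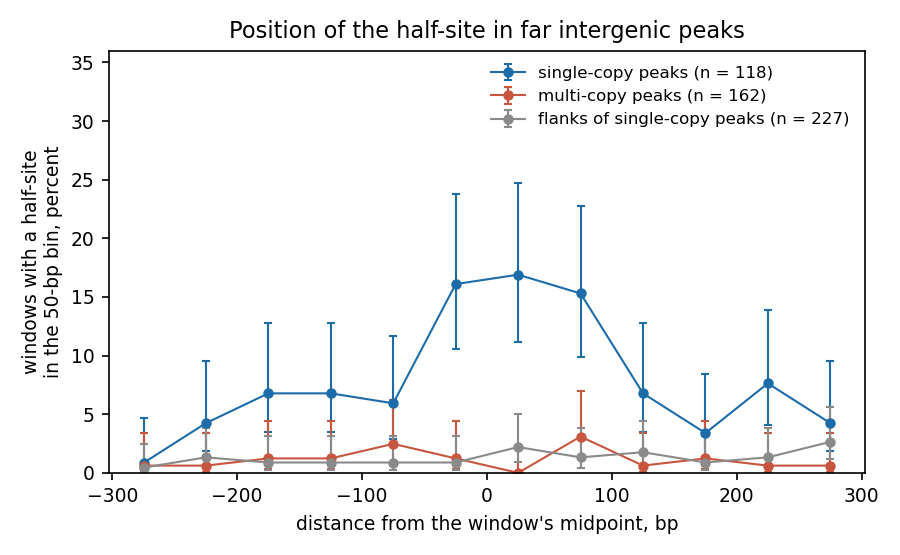
Percent of windows with AAGGTCA in each 50-bp bin (vertical axis, with 95% Wilson intervals) against distance from the window's midpoint in bp (horizontal axis), for single-copy and multi-copy far intergenic peaks and the flanks of the single-copy ones. The single-copy peaks reach 16.1 and 16.9% on either side of the midpoint and 0.847% at one edge, while the multi-copy peaks stay at or below 3.09%.

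Close forms of the extended site were counted as well. At most 1 mismatch to TCAAGGTCA was found in 75 of the 118 single-copy peaks (63.6%) and in 19.8% of flanks (odds ratio 7.05, Fisher's exact test p = 1.4e-15). These shares include exact copies: 19 of the 75 peaks held one, and 56 had 1 mismatch at best. In the 227 flanks the counts were 6 and 39. Windows without an exact copy were not tested apart. Of the 53 peaks without AAGGTCA, 27 held the core AGGTCA (50.9%), against 24.9% of the flanks that lacked AAGGTCA (odds ratio 3.14, Fisher's exact test p = 6.2e-04).

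Words that were not chosen for ESRR gave the same sequence. Of 2080 words of 6 bases counted within 100 bp of the midpoint, both strands merged, 10 (0.481%) differed between single-copy far intergenic peaks and flanks at an adjusted p under 0.05 by Fisher's exact test, 9 of them more frequent in peaks. AGGTCA led, in 56.8% of peaks and 10.6% of flanks (odds ratio 11.1, Fisher's exact test, adjusted p = 2.4e-16), and 4 of the 10 words lie inside TCAAGGTCA. Another 3 share all but 1 base with it, the word CTTGAC on its 5′ side and the words GGTCAC as well as ATGACC on its 3′ side. CATTCC was in 16.9% of peaks and 4.41% of flanks (Fisher's exact test, adjusted p = 0.044). AGTCCA, which is also the 3′ end of the HNF4 form CAAAGTCCA tested below, was in 22.0 and 7.49% (Fisher's exact test, adjusted p = 0.047). AAATTA alone was less frequent in peaks, at 4.24 against 18.1% (Fisher's exact test, adjusted p = 0.044).

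No exact sequence chosen for another intestinal transcription factor passed against the flanks. In a panel of 14 sequences on both strands, 3 (21.4%) passed, all forms of the ESRR site: AAGGTCA, TCAAGGTCA and TNAAGGTCA, which overlap each other. AGATAAG, a form of the GATA site, was in 16.1% of the single-copy peaks and 8.37% of flanks (odds ratio 2.10, Fisher's exact test p = 0.045, adjusted p = 0.16). The CDX form TTTATNG was in 32.2 and 30.0%, the AP-1 form TGANTCA in 22.9 and 22.5%, and the HNF4 form CAAAGTCCA in 2.54 and 1.32% (Fisher's exact test, adjusted p = 1, 1 and 0.96). A reversed control, ACTGGAACT, was in none of the 118 peaks and none of the 227 flanks.

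Against the other single-copy peaks, 1 of the 14 sequences (7.14%) passed. GGGCGGG, the GC box of KLF and SP factors that is typical of promoters, was in 7.63% of far intergenic and 19.5% of other peaks (odds ratio 0.342, Fisher's exact test, adjusted p = 0.015). The rule leaves every promoter peak out of the far intergenic class, whereas 469 of the other 1197 single-copy peaks were promoter peaks. A lower share of this sequence was therefore built into the comparison, which was not repeated without promoter peaks. Base composition went the same way. The GC content of the single-copy far intergenic peaks was 46.0% ± 5.73 (SD, n = 118), that of the other single-copy peaks 51.4% ± 8.00 (SD, n = 1197), a difference of -5.41 percentage points (permutation test, p = 2.0e-05, the smallest value that 100000 resamples give). Without promoter peaks, a comparison added after the data were seen, the difference was -2.27 percentage points (permutation test p = 2.6e-04). Their flanks had 44.8% (permutation test p = 0.061), and the multi-copy peaks had 40.6%.

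Several single-copy peaks held the half-site many times. At least 3 AAGGTCA were in 10 of 118 (8.47%, 95% interval 4.67 to 14.9), beside 3.04% of all single-copy peaks and 0 of the 227 flanks (upper limit of the 95% interval 1.66%). The other single-copy peaks had 2.51% (30 of 1197, odds ratio 3.60, Fisher's exact test p = 0.0019). This threshold was chosen after the counts had been seen. In all, the 118 peaks held 142 sites, 42 peaks held 1, 13 held 2, and the 10 peaks with 3 or more held 74.

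**Figure D5:**
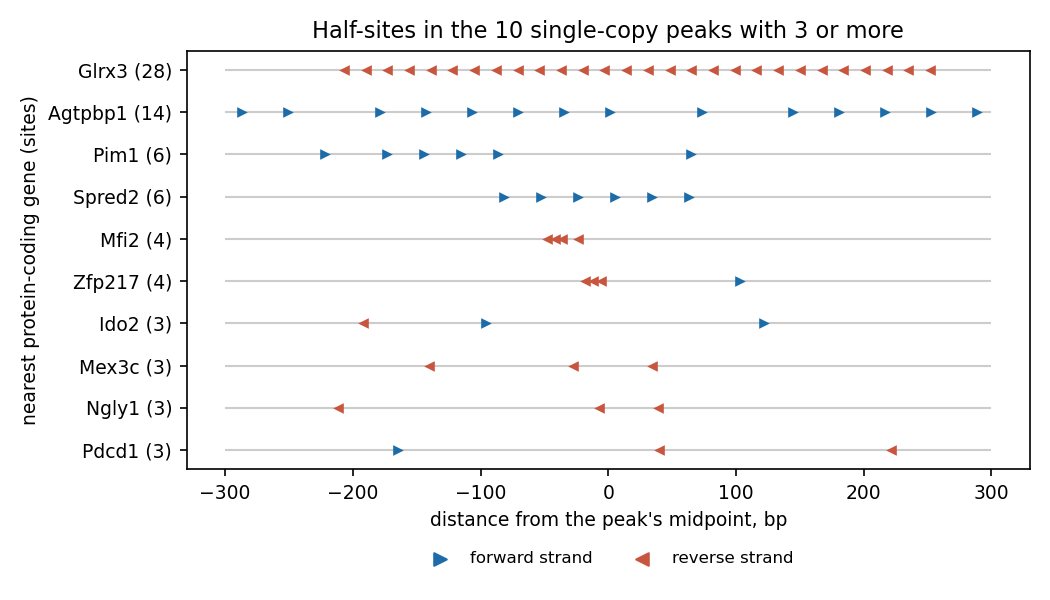
Position of each AAGGTCA in the 10 single-copy far intergenic peaks with 3 or more, as distance from the peak's midpoint in bp (horizontal axis); each row is a peak named by its nearest protein-coding gene with its number of sites, and arrowheads point right for the forward and left for the reverse strand. The sites near Glrx3, Agtpbp1, Pim1 and Spred2 point in 1 direction, mostly at a regular step.

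In 6 of these peaks the sites stood in arrays, in which at least 1 pair of neighbouring sites had at most 30 bases between them, and these peaks held 62 of the 142 sites. A stretch of 3 neighbouring sites is shown for each, 5′ to 3′ on the strand that reads AAGGTCA, with every AAGGTCA in capitals, also where the end of the stretch cuts it. Adjacent copies in the Mfi2 and Zfp217 arrays share a base.
Mfi2 (chr16:31902124-31902162, reverse strand): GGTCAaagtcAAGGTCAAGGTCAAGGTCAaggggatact
Zfp217 (chr2:169929018-169929056, reverse strand): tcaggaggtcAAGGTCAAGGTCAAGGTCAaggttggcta
Pim1 (chr17:29576542-29576626, forward strand): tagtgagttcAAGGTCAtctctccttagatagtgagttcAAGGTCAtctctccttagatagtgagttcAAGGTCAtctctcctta
Spred2 (chr11:19762387-19762471, forward strand): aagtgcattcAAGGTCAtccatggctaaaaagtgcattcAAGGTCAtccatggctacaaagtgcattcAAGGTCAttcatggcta
Glrx3 (chr7:144708461-144708521, reverse strand): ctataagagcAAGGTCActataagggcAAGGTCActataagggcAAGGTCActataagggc
Agtpbp1 (chr13:59240681-59240779, forward strand): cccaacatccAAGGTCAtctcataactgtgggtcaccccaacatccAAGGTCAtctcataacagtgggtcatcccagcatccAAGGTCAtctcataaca
The peak near Glrx3, 79.2 kb from a gene for a cytosolic glutaredoxin, held 28 sites, 27 of them one step of 17 bp from the next, in a tandem stretch of 507 bp. The Agtpbp1 peak held 14 sites with a commonest step of 36 bp over its whole width of 601 bp. Both Spred2, which encodes an inhibitor of Ras signalling, and Pim1, a kinase gene, had a peak with 6 sites and a commonest step of 29 bp, and each of those sites was the full TCAAGGTCA. The arrays near Mfi2 and Zfp217 were short. Both peaks held 4 sites, of which 3 followed each other at a step of 6 bp, and the fourth Zfp217 site lay apart on the other strand. Words in the Glrx3 and Agtpbp1 peaks had a median of 3 and 5 copies in the genome, the same number as within 20 kb, and 32.5 and 10.0% of their words were unique. In the Spred2 and Pim1 peaks 88.1 and 70.9% of the words were unique. A tandem stretch of at least 100 bp was present in 8 of the 118 single-copy peaks and in 4.85% of flanks (odds ratio 1.43, Fisher's exact test p = 0.46).

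Another 2 single-copy peaks held just a pair of AAGGTCA with at most 30 bases between them. They are shown on the forward strand with both copies in capitals, because one pair is direct and the other inverted.
Gm4609 (chr3:121913539-121913601, forward strand): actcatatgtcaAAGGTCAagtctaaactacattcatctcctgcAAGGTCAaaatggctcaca
Arhgap5 (chr12:53549246-53549292, forward strand): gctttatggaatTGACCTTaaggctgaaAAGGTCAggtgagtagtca
The copies near Gm4609 start 32 bp apart in the same direction. Those near Arhgap5 start 16 bp apart on opposite strands, so the first reads TGACCTT.

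The genes nearest to the peaks were counted in 8 lists. No single-copy far intergenic peak had an oxidative phosphorylation subunit gene as its nearest protein-coding gene, whereas 42 of all 1315 single-copy peaks did (3.19%). The same was true of the list of the tricarboxylic acid cycle and fatty acid oxidation, at 0 of 118 against 0.760% of all single-copy peaks, of goblet and enteroendocrine genes (0 against 0.380%) and of crypt and Paneth genes (0 against 0.0760%). Immune and stromal genes were nearest to none in either set. Each of 3 other lists held 6 of the 118 peaks (5.08%): brush border and transport genes, with 6.92% among all single-copy peaks, dietary lipid handling, with 3.12%, and intestinal transcription factors, with 2.74%. These counts were not tested, and together the lists held 15.3% of the far intergenic and 17.2% of all single-copy peaks. The set of all single-copy peaks included 469 promoter peaks, which the rule keeps out of the far intergenic class. A lower share for any list whose peaks lie mainly at promoters was therefore built into the comparison.

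Among the brush border genes were Sis, the sucrase-isomaltase gene, and Slc5a1, the sodium-glucose cotransporter gene, each with 2 peaks. One of the Sis peaks, 81.5 kb downstream of its start site, held AAGGTCA, and neither Slc5a1 peak did. The lipid genes were Mogat2, a monoacylglycerol acyltransferase gene of fat absorption, with a peak 23.2 kb downstream, Scarb1, Isx and Rbp2, the cellular retinol-binding gene of enterocytes, with 3 peaks. Only the Mogat2 peak of these 6 held AAGGTCA. The transcription factor genes were Hnf4a (25.0 kb), Gata4 (53.6 kb), Klf5 (153 kb), Jun (232 kb), Maf (182 kb) and Ppargc1a (147 kb), which encodes PGC-1α. The first 4 of these had AAGGTCA in their peak, and the Maf and Ppargc1a peaks had none. The site nearest the midpoint in these peaks is in capitals in the following lines, except that of Jun, which is among the sequences at the start.
Gata4 (chr14:63944179-63944225, forward strand): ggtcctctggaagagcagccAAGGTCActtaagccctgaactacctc
Hnf4a (chr2:163401066-163401112, forward strand): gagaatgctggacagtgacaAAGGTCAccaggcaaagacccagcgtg
Klf5 (chr14:99850822-99850868, reverse strand): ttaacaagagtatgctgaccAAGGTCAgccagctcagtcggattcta
Mogat2 (chr7:106363897-106363943, forward strand): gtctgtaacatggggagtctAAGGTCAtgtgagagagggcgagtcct
Sis (chr3:72689561-72689607, forward strand): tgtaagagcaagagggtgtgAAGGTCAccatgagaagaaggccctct
The Gata4 peak held a second copy, and the others held 1. The Mogat2 site and the Gata4 site lay within 25 bp of the midpoint, while those of Hnf4a and Sis lay close to the edge.

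Distance alone left most of the single-copy peaks outside a window of 30 kb around a protein-coding start site. A protein-coding start site lay within 30 kb of 32 of them and beyond it for 86, and 65 lay upstream of the nearest protein-coding gene and 53 downstream. Within 30 kb of the single-copy peaks were the start sites of 38 protein-coding genes, and 28 of these had no other kind of single-copy ESRRA peak that near. The peaks were spread over 20 chromosomes, with 1 on X and none on Y.

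Single-copy far intergenic peaks had a neighbouring peak less often than the rest. Another peak lay within 30 kb of 27 of the 118 single-copy peaks (22.9%, 95% interval 16.2 to 31.2), beside 40.7% of all single-copy peaks. The other single-copy peaks had 42.4% (odds ratio 0.402, Fisher's exact test p = 3.1e-05), and near intergenic single-copy peaks alone had 42.9% (odds ratio 0.396, Fisher's exact test p = 2.6e-04). Among multi-copy far intergenic peaks 8.02% had a neighbour. The rule itself bears on these shares. It places the far intergenic peaks outside genes and more than 20 kb from start sites, where the 489 promoter peaks lay. The tests therefore cannot tell a solitary placement from an effect of the rule. Peaks in 1 chain share their surroundings and are not independent, and these tests treat each peak as 1 unit.

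The 27 peaks with a neighbour fell into 16 chains, in each of which every peak was at most 30 kb from the next. Of these, 6 chains had 3 or more peaks and held 13 of the far intergenic single-copy peaks. The longest, with 17 peaks over 70.4 kb between Kirrel3 and St3gal4, held 3 of them, and the Slc5a1 chain, with 14 peaks over 63.5 kb, held 2. The Rbp2 chain held 3 of its 8 peaks, those of Sis and B4galt5 2 of 4 each, and that at Scarb1 1 of 4. AAGGTCA was in 1 of these 13 peaks (7.69%), the one near Sis, in 10 of the 14 peaks in chains of 2 (71.4%) and in 54 of the 91 peaks without a neighbour (59.3%). This difference was not tested, because a like pattern over all peaks was known when the chains were listed. Taken as 1 group, 40.7% of the peaks with a neighbour held AAGGTCA against 59.3% without (odds ratio 0.471, Fisher's exact test p = 0.12). Chains of 2 in which both peaks were far intergenic included those near Pim1, Tjp1, a tight junction gene, and Moxd2.

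Most multi-copy peaks shared words with at least 1 other multi-copy peak. Joined by at least 20 shared words, 147 of the 162 fell into 7 groups, and 125 were in 1 group. A peak could join a group through any member, so peaks of the same group need not all share words. The group of 125 had a median of 4366 copies (range 20 to 16216) and a median GC content of 37.9% (range 33.8 to 66.6). Its peaks lay on 18 chromosomes, 14 of them on X, and included 21 of the 22 multi-copy peaks with AAGGTCA. Whether they belong to 1 repeat family was not tested. The next groups had 7 peaks (median 1230.0 copies) and 5 peaks (median 1301 copies), none with AAGGTCA. As examples, 60 bases are given from the peak with the highest median in each of these 3 groups, in order of group size. They are on the forward strand, with the commonest 24-base word of the peak's middle part in capitals, and need not represent the other peaks of a group.
Gm10119 (chr14:88226850-88226909, forward strand): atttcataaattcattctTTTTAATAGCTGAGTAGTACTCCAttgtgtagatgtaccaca
Rhob (chr12:8414157-8414216, forward strand): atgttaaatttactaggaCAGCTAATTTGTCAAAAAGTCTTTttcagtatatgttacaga
Gm1840 (chr8:6496009-6496068, forward strand): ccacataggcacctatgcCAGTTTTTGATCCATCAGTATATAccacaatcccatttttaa
The capitalised words occurred 35686, 2096 and 1588 times in the genome. The genome sequence used here carried no marking of repeat families, so none is named. On X lay 18 of the 162 multi-copy peaks and 1 of the 118 single-copy peaks.

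A minority of the multi-copy peaks were tandem repeats at a single place. In 9 peaks most of the copies lay within 20 kb of the peak, and none of these 9 held AAGGTCA. The tandem stretch filled at least 424 bp of the peak in 7 of them. Of these, 6 are given here on the forward strand with 1 repeat unit in capitals.
Smurf2 (chr11:106807143-106807242, forward strand): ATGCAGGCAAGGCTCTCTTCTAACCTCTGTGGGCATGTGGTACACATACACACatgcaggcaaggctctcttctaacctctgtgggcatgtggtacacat
Tmem207 (chr16:26497457-26497538, forward strand): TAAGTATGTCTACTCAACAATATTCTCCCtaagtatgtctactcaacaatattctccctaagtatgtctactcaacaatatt
Cdc42ep3 (chr17:79789968-79790029, forward strand): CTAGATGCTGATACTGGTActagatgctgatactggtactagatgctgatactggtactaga
Slc25a17 (chr15:81140292-81140383, forward strand): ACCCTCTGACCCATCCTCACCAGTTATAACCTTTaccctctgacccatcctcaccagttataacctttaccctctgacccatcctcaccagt
Mecom (chr3:29742734-29742811, forward strand): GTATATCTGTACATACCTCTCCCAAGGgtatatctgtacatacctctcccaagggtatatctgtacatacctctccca
Fam3c (chr6:22502168-22502257, forward strand): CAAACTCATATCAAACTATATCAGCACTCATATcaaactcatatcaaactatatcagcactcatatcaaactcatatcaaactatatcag
The units were 53, 29, 19, 34, 27 and 33 bp long in the order shown, and the peaks' words had a median of 110.0 copies near Smurf2 and 14 near Mecom. The seventh peak, near Galr1, had a unit of 17 bp and held the core AGGTCA 34 times, whereas none of the 6 shown held it.

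Genes of the lists were also nearest to a few multi-copy peaks. Of these lists, brush border genes were nearest to 3 multi-copy peaks, all at Tmprss15, the enteropeptidase gene, at 452, 693 and 803 kb. Transcription factor genes were nearest to another 3, Hnf4g at 189 kb, Klf4 at 334 kb and Ppargc1a at 608 kb, and the crypt list to 1, Olfm4, a stem cell marker, at 1557 kb. None of these 7 peaks held AAGGTCA.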

How the data were processed

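Villus cells of wild-type duodenum were profiled by ESRRA ChIP-seq in 2 libraries with 1 input library, grouped by their titles. The authors aligned the reads to mm9, merged both ChIP libraries and called peaks with MACS2 at a p-value of 1e-05. The submitters' processing notes name FastQC 0.11.3, Bowtie2 2.2.6, SAMtools 0.1.19 and deepTools 2.4.2. In the deposited list each of the 3 columns held a position: the chromosome, start and end in bp, without a score. All 1639 peaks were 601 bp wide, for which no reason is given in the sources used here, and any filter for repeats is not given either. Because libraries were pooled, depth per sample is unknown and weak peaks count like strong ones.

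The sequence was NCBI build 37, which is mm9, with GENCODE M1 genes and start sites. Words of 24 bases were counted on both strands. Flanks were 601-bp windows 2 kb away that touched no other peak or gap, and they were not filtered by copy number. Sequences were matched exactly on both strands. Tandem stretches had a period of 2 to 100 bp at 85% identity. Differences in shares were tested by Fisher's exact test, two-sided, in scipy 1.17.1 (Python 3.11.15) and adjusted by the Benjamini-Hochberg method where stated. Of a set of 42 tests of shares 23 had p under 0.05, and 22 after adjustment over all 42. This set does not hold every test of a share, and the panel and the words were adjusted apart from it. The 95% Wilson intervals cover only counting error over peaks, and permutation tests, also two-sided, used 100000 resamples. Scripts were tested on simulated data. The peaks named were those with TCAAGGTCA nearest the midpoint, those farthest from a start site, those at the threshold, those in chains or with close pairs of sites, those nearest to genes of 8 lists, and the largest groups of multi-copy peaks. The division of the peaks and the gene lists were chosen with earlier results of these data known. Sequences on chromosome 18 are not printed. Some items are not reported here. Alternatives changed the distance, the gene set, the copy threshold, the word length, the flanks and the chromosomes.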

Additional observations from a re-analysis of the deposited data

How the results depend on the processing

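The number of far intergenic peaks was 172 beyond 50 kb, and between 223 and 361 under the other definitions. AAGGTCA in single-copy far intergenic against other single-copy peaks did not pass the test in any of the 12 alternatives; its odds ratio fell below 1 with protein-coding genes only (0.901), with more than 100 copies as the limit (0.875) and without peaks that had a neighbour within 30 kb (0.935). The excess of multi-copy peaks (odds ratio 8.34 to 12.9) and of AAGGTCA over flanks (5.37 to 9.27) and TCAAGGTCA over flanks (5.13 to 44.1) kept direction and side of the threshold throughout; the highest of the last, with flanks 10 kb away, rests on 1 of 231 flanks. Leaving out peaks with tandem stretches kept the excess of peaks with 3 or more AAGGTCA (3.26, Fisher's exact test p = 0.021). Settings on tandem stretches, neighbours, exactly 1 copy, several sites and promoter peaks were chosen after seeing the data. A stricter peak threshold and leaving out each ChIP library could not be run, as scores and peaks per library were not analysed here. No analysis paired by library was possible because the reads of the 2 ChIP libraries were merged before peaks were called. Flanks and more distant windows were each tied to a peak, but the tests did not use that pairing. Missing peak heights limit every result.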
